A study of Homo sapiens with 16 samples.

Results

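Long intergenic noncoding RNAs (lincRNAs) are transcripts with no known protein product that are annotated between protein-coding genes. The 172 described here were those measured well in both cell lines of the study, out of 7629 lincRNA genes and 58735 genes in all. A gene entered when its biotype was lincRNA and its raw counts, summed over the 8 libraries of a line, reached at least 200 in each line. The members were thus chosen by measured totals, and their levels are given as a description. Of 186 lincRNA genes that reached the minimum in both lines, 5 small nucleolar RNA host genes (SNHG genes, GAS5 and ZFAS1) and 9 genes on chromosome 18 were set aside by rule. A further 138 lincRNAs reached the minimum in MDA-MB-231 only and 108 in SUM159PT only. Summed counts of the members ranged between 203 and 75157 in MDA-MB-231 (median 751.5), and between 202 and 54144 in SUM159PT (median 592). Just inside the minimum were AC007249.2 with 203 and AC232271.1 with 205 counts in MDA-MB-231, and HCG27 with 202 and AC092803.2 with 204 in SUM159PT. Just outside were OGFRP1 with 198 and AC008393.1 with 197 counts in MDA-MB-231, and AL139246.5 with 199 and AC005736.1 with 190 in SUM159PT.

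MDA-MB-231 and SUM159PT are established human triple-negative breast cancer lines, labelled as wild type. Cells of each line were lipofected (Lipofectamine2000) with sgNTS, a guide RNA against no target, or with sgYES1, a guide against YES1, a SRC family tyrosine kinase, and were collected 48 h later. Each of the 4 groups had 4 libraries, 16 in all, made from RNA captured on oligo-dT beads. The series' design text calls the replicates technical, so p-values measure the spread between these libraries only. The series' title places the work in mitotic fidelity and taxane response. No library was labelled with a taxane, the protein acting with the guides was not given in the sources used here, and 1 guide is named per arm, so effects of the guide itself and of its target cannot be told apart.

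LincRNAs act as RNA, and most of those with a known role work in the nucleus. NEAT1 is the scaffold of paraspeckles, nuclear bodies that hold RNA-binding proteins and edited RNAs, and MALAT1 collects in nuclear speckles beside splicing factors. NORAD is cytoplasmic, binds the Pumilio proteins that repress mRNAs and is known for its part in chromosome stability. Other lincRNAs are host transcripts from which microRNAs are cut, or arise divergently from the promoter of a coding gene. Many have no assigned function, and 82 of the 172 carry only a name in the form of a clone accession.

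The spans of 14 members held 26 microRNA hairpins on the same strand, 21 of them with a mature sequence in RefSeq (GRCh38.p14). The mature sequences of the hosts whose values are described below are printed to show which microRNAs each host carries, 5′ to 3′, with the seed (bases 2 to 8) in capitals. Libraries selected for poly-A do not measure mature microRNAs, so all values below are of the host transcripts. The sequences fall into groups with the same seed: miR-30a with miR-30c, miR-221 with miR-222, and let-7a with miR-4458.
hsa-miR-22-3p (exon of MIR22HG, chr17:1713903-1713987): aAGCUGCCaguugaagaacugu
hsa-miR-503-5p (intron of MIR503HG, chrX:134546328-134546398): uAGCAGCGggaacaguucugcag
hsa-miR-30a-5p (intron of LINC00472, chr6:71403551-71403621): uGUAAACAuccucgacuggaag
hsa-miR-30c-5p (intron of LINC00472, chr6:71376960-71377031): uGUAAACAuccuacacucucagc
hsa-miR-221-3p (intron of MIR222HG, chrX:45746157-45746266): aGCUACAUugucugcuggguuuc
hsa-miR-222-3p (intron of MIR222HG, chrX:45747015-45747124): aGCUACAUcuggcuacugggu
hsa-let-7a-5p (exon of MIRLET7BHG, chr22:46112749-46112822): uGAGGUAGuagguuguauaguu
hsa-miR-4458 (exon of MIR4458HG, chr5:8460925-8460999): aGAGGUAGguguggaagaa
hsa-miR-29c-3p (exon of MIR29B2CHG, chr1:207801852-207801939): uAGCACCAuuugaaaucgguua
hsa-miR-210-3p (intron of MIR210HG, chr11:568089-568198): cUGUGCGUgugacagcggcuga
hsa-miR-4435 (exon of CYTOR and intron of MIR4435-2HG): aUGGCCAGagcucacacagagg

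NORAD (chr20:36045622-36050960, minus strand, 1 exon) is shown by the Pumilio recognition element TGTANATA, searched on the transcript strand of the longest GENCODE 29 transcript of every member. NORAD held 15 matches, 2.81 per kb, the most by both measures. FTX was next by count with 7 (0.571 per kb), and AL645933.2 next per kb (1.66, from 2 matches). Of the 172 members, 139 held none and 33 at least 1, beside 690 of 7457 other lincRNAs, whose transcripts are shorter (median 691 against 2316 bases). Windows around 4 of the 15 matches are printed with the element in capitals and its position counted from the transcript's first base. A match is a description and does not show binding.
NORAD 761 to 768: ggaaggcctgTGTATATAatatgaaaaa
NORAD 1241 to 1248: aatcacatttTGTAAATAcctttttgtt
NORAD 1451 to 1458: gtgtatatagTGTACATAaaggacagac
NORAD 2972 to 2979: aaccctactgTGTATATAgcggacaaac

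CYTOR and MIR4435-2HG on chromosome 2 share part of their sequence, and the pair is printed because reads cannot be assigned between them with certainty. Their 300-base promoter windows in RefSeq (GRCh38.p14) shared 1 identical run of 241 bases. Of the 50-base words of the longest CYTOR transcript, 19.1% also occurred in the longest MIR4435-2HG transcript, and 40.4% the other way. Capitals mark a match to the AP-1 motif TGANTCA, searched on both strands and found in 7.71% of the 35116 promoters of the table and in 8 of the 89 promoters available for members.
CYTOR (chr2:87455358-87455417, plus strand): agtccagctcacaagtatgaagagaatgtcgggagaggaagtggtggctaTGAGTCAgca
MIR4435-2HG (chr2:111495112-111495171, minus strand): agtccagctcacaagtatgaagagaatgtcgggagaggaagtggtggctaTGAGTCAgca

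YES1 itself was lower in every sgYES1 library. Its level went from 105 to 112 CPM (counts per 1000000 of the library total after TMM scaling, edgeR's trimmed-mean correction, here over all 16 libraries) with sgNTS to 41.2 to 43.7 with sgYES1 in MDA-MB-231, and from 91.4 to 98.3 to 38.8 to 40.3 in SUM159PT. Total counts per library were 17156454 to 25124164 in MDA-MB-231 and 14352042 to 20884267 in SUM159PT. Of the defining breast markers, PGR (progesterone receptor) had 0 counts in every group, the group mean of ESR1 (estrogen receptor) was at most 0.263 CPM, and the sum of both with ERBB2 (HER2) was 91.6 to 116 CPM. VIM, CD44, KRT8, KRT18 and EGFR were listed for mesenchymal-like carcinoma, though KRT8 and KRT18 are epithelial keratins. The 5 genes summed to 3504 to 3719 CPM with sgNTS and 3135 to 3263 with sgYES1 in MDA-MB-231 (no overlap, 3 of 5 genes fell). In SUM159PT the sums were 2889 to 2986 and 2814 to 2952 CPM, with overlap, and 3 genes rose and 2 fell. The summed level of 9 leukocyte markers was 0.738 to 1.24 CPM with sgNTS and 1.32 to 2.26 with sgYES1 in MDA-MB-231 (in SUM159PT 0.214 to 0.668 and 0.630 to 1.52), with the T cell gene CD3E and the B cell gene MS4A1 at 0 in every group, and that of 5 endothelial markers went from 4.59 to 5.83 CPM to 7.49 to 9.97 in MDA-MB-231. Small nuclear RNAs, which lack poly-A tails, summed to 9.01 to 11.9 CPM with sgNTS and 22.8 to 25.9 with sgYES1 in MDA-MB-231, and to 12.7 to 14.2 and 18.9 to 21.9 in SUM159PT, and the part of these markers and RNAs in the lincRNA results was not tested. Olfactory receptor genes, which should be silent here, overlapped between guides in both lines. They summed to 1.46 to 2.63 CPM with sgNTS and 1.92 to 3.01 with sgYES1 in MDA-MB-231. In SUM159PT they were higher, at 8.82 to 11.7 and 9.40 to 11.2 CPM. The part of this line difference in the comparison of control lines was not tested. In MDA-MB-231 the sgNTS replicate 4 stood apart, with 2.34% mitochondrial counts against 3.81% to 5.15% in the other 3 libraries. The share fell in order over sgNTS replicates 1 to 4 (5.15%, 4.82%, 3.81% and 2.34%). The main counts and part of the single results are also given without replicate 4. Fits that left out more than 1 library were not run, so such an order over the controls was not removed. CPM of single genes and of the marker lists are on this scale, CPM summed over all members, small nuclear RNAs or olfactory receptor genes are per library total with no TMM scaling, and "called" means an adjusted p under 0.05.

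The level of the members was uneven. Mean CPM with sgNTS ranged between 0.736 and 441 in MDA-MB-231 (median 3.98) and between 0.710 and 424 in SUM159PT (median 4.27), and the 5 highest members held 51.6% and 46.7% of all member CPM. Per kilobase of exon, NORAD was the highest in both lines, at 82.6 CPM per kb in MDA-MB-231 and 52.3 in SUM159PT. In MDA-MB-231 it was followed by AL161431.1 (38.7 CPM per kb), NEAT1 (14.8), SFTA1P (13.0) and AC092171.2 (12.8). In SUM159PT AL590004.3 (32.1), AL161431.1 (24.0), NEAT1 and PVT1 (both 18.6) were among the highest. The median coefficient of variation over members within a group was 10.8% to 14.0%.

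The control libraries of the lines differed at most members. Of the 172, 80 were higher and 55 lower in SUM159PT than in MDA-MB-231 with sgNTS (adjusted p under 0.05), a total share of 78.5% where 81.8% of all genes tested were called (40.5% higher, 41.3% lower). The rule itself asks for counts in both lines, so members with no counts in 1 line could not enter. A called change of at least 2-fold was present for 60 of the 172, and the share of all genes at 2-fold was not taken. At a fold of at least 1.5, 60.5% of members and 55.1% of all genes tested were called. AL590004.3, a single-exon transcript of unassigned function at chr6:3904920-3911979, was the widest, at 0.959 ± 0.248 CPM (SD, n = 4) in MDA-MB-231 and 227 ± 15.5 in SUM159PT. LINC00707 was 21.9-fold higher and PVT1, the neighbour of the oncogene MYC, was 5.99-fold higher in SUM159PT. LINC02009 was 10.7-fold and LINC00857 6.57-fold lower there. The plot of control levels shows both lines side by side.

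**Figure D1:**
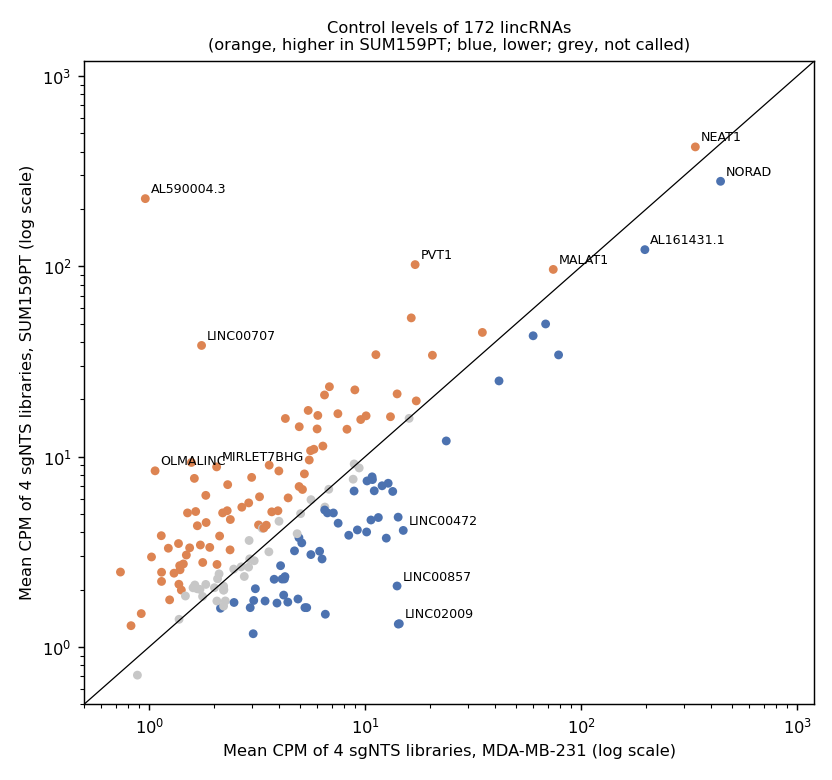
Mean CPM of the 172 members with sgNTS in MDA-MB-231 (horizontal axis) and SUM159PT (vertical axis), both on a log scale, 1 point per member and 4 libraries per mean. AL590004.3 lies far above the diagonal (0.959 against 227 CPM), and NEAT1, MALAT1 and NORAD lie close to it.

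In MDA-MB-231, the well-measured lincRNAs moved mostly upward after sgYES1. By edgeR's quasi-likelihood test with Benjamini-Hochberg adjustment over all 15427 genes tested, 59 of the 172 members rose (34.3%) and 6 fell (3.49%). Of all genes tested, 20.8% rose and 22.1% fell (42.8% called). The median log2 fold change was 0.25 over members and 0.01 over all genes, and 130 of 172 members had a positive value. At a fold of at least 1.5, 27 members rose and 1 fell, where 1110 (7.20%) and 279 (1.81%) of all 15427 genes did. Groups of 4 did not overlap, with sgYES1 higher, for 55 members (19.2% of all genes) and with sgYES1 lower for 7 (20.0% of all genes). With library totals in place of TMM scaling, all genes split into 3947 higher and 2672 lower instead of 3205 and 3402, and members into 70 and 2. Without sgNTS replicate 4, 57 members rose and 4 fell. Counts are shares of each library, so fewer cells that make an RNA and less of it per cell cannot be told apart.

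Of the other noncoding classes, some had a similar upward median in the same libraries and others did not. Among 405 tested lincRNAs that are no members, 95 rose and 18 fell (median 0.25), among 741 antisense genes 192 rose and 22 fell (median 0.26), and among 149 processed transcripts 48 rose and 5 fell (median 0.29). Of 83 sense-intronic genes 11 rose and 5 fell (median 0.07), and of 389 processed pseudogenes 38 rose and 28 fell (median 0.02). Among 12835 protein-coding genes 2617 rose and 3291 fell (median −0.01). Low-level coding genes also leaned upward: of 1758 under 3 CPM, 415 rose and 98 fell, beside 15 and 1 of 58 members at that level. At 10 to 100 CPM, 17 of 34 members rose and 2 fell, beside 1480 and 1924 of 7085 coding genes. The part of expression level, and of the rise in small nuclear RNAs, in the members' shift was not tested.

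**Figure D2:**
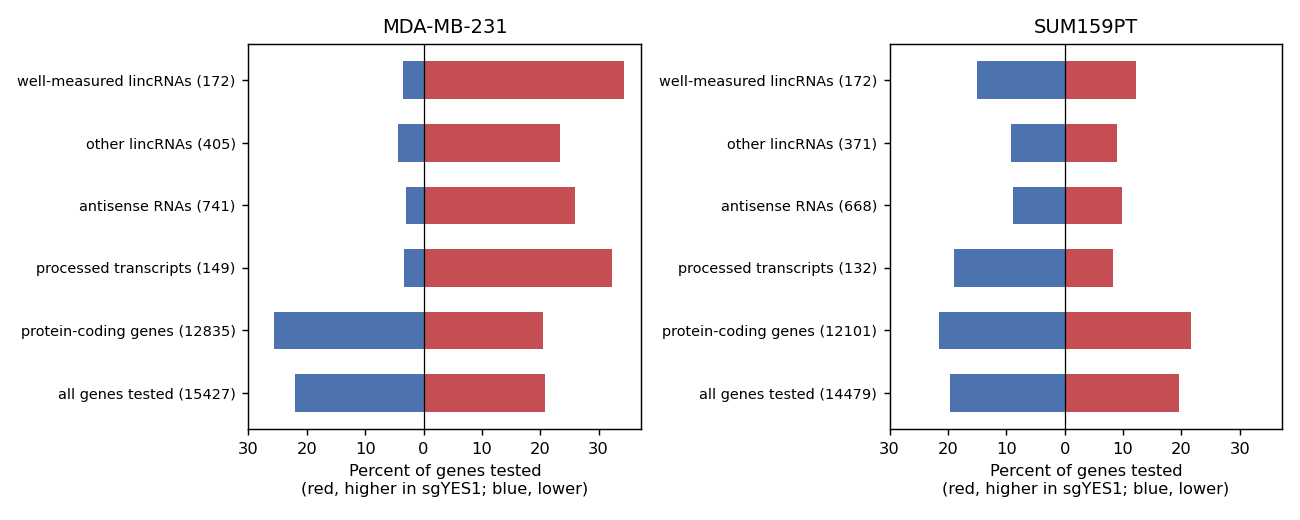
Share of genes that rose or fell with sgYES1 (adjusted p under 0.05, percent of those tested) for members, other lincRNAs, antisense genes, processed transcripts, protein-coding genes and all genes tested, by line. In MDA-MB-231 34.3% of members rose and 3.49% fell, and in SUM159PT 12.2% rose and 15.1% fell.

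In SUM159PT the members moved in both directions. After sgYES1 21 of the 172 were up (12.2%) and 26 down (15.1%) by the same test, beside 19.6% up and 19.7% down of all 14479 genes tested there (39.4% called). The median log2 fold change was −0.04 over members and −0.01 over all genes, and 77 of 172 values were positive. Changes of 1.5-fold or more were called upward for 11 and downward for 9 of 172, beside 4.72% and 2.56% of all genes. Libraries of both guides were fully apart for 17 members with sgYES1 higher (16.8% of all genes) and 29 with sgYES1 lower (18.2% of all genes). By level, 4 of the 33 members at 10 CPM or more rose and 14 fell, and under 10 CPM 17 of 139 rose and 12 fell. Of all genes, 20.9% rose and 24.6% fell at 10 to 100 CPM and 25.3% and 28.7% at 100 CPM or more, beside 14.3% and 5.57% under 3 CPM and 16.3% and 13.1% at 3 to 10 CPM.

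Summed over all members, CPM per library total moved in opposite directions in the lines. In MDA-MB-231 the sum was 2253, 2273, 2082 and 2102 CPM with sgNTS and 2669, 2696, 2769 and 2620 with sgYES1, and the groups did not overlap. In SUM159PT it was 2521, 2345, 2485 and 2316 CPM with sgNTS and 2244, 2249, 2225 and 2185 with sgYES1, again without overlap and with sgYES1 lower. The sums were also taken without 5 members of high count in at least 1 line: NEAT1, NORAD, AL161431.1, AL590004.3 and MALAT1. These are not the 5 highest of each line. AL590004.3 was near the lower end in MDA-MB-231, and with sgYES1 in SUM159PT PVT1 lay above MALAT1 in every library. Sums without each line's own 5 highest were not taken. Without the 5 named members the sums were 1248 to 1324 and 1256 to 1273 CPM in SUM159PT, which overlapped. In MDA-MB-231 they stayed apart, at 1106 to 1166 and 1337 to 1374 CPM.

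**Figure D3:**
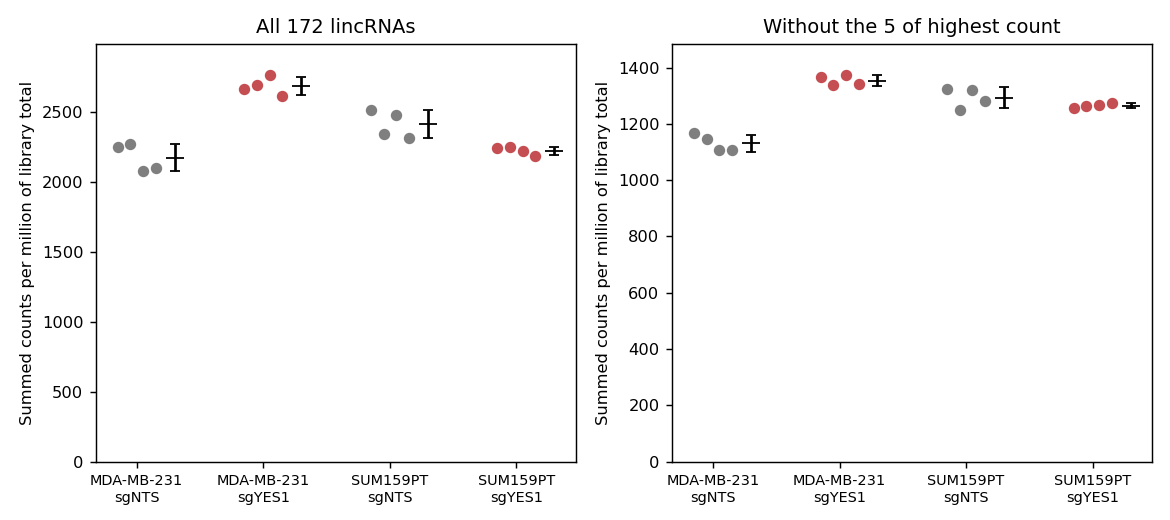
Summed CPM of the 172 members, with and without 5 of high count (NEAT1, NORAD, AL161431.1, AL590004.3 and MALAT1), in each of the 16 libraries (points) with the group mean (line). The sgYES1 libraries of MDA-MB-231 sit above those with sgNTS in both sums. Those of SUM159PT sit below when these 5 are counted and overlap without these 5.

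Of the nuclear-retained members, NEAT1 and MALAT1 rose in MDA-MB-231 and neither rose in SUM159PT. NEAT1 (chr11:65422774-65445540, plus strand, over 5 kb from any coding gene) was at 416, 413, 291 and 228 CPM with sgNTS and 508, 562, 578 and 509 with sgYES1 in MDA-MB-231, a log2 fold change of 0.68 (SE 0.14, adjusted p = 0.00143). All 4 sgYES1 libraries lay above the controls, and among the controls replicates 3 and 4 were low. Without sgNTS replicate 4 the value was 0.53 (adjusted p = 7.43e-05). In SUM159PT NEAT1 was at 452, 408, 481 and 354 CPM with sgNTS and 368, 394, 363 and 342 with sgYES1, and fell by 0.20 (SE 0.07, adjusted p = 0.0206). The groups overlapped, and the call was lost without sgNTS replicate 1 (adjusted p = 0.0848), sgNTS replicate 3 (0.122) or sgYES1 replicate 4 (0.0787), and with DESeq2 (−0.20, adjusted p = 0.148). The effects in the lines differed by −0.89 on the log2 scale (SUM159PT minus MDA-MB-231, SE 0.17, adjusted p = 0.000423).

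MALAT1 (chr11:65497688-65506516, plus strand) lies beside NEAT1 on chromosome 11. With sgNTS in MDA-MB-231 it was at 86.7, 87.7, 63.2 and 59.0 CPM and with sgYES1 at 98.4, 96.9, 98.3 and 92.0, a log2 fold change of 0.37 (SE 0.10, adjusted p = 0.00864). The groups did not overlap, and as with NEAT1 the sgNTS replicates 3 and 4 were low. Without sgNTS replicate 4 the value was 0.27 (adjusted p = 0.00761). In SUM159PT it was at 103, 99.1, 98.9 and 84.1 CPM and then 91.5, 106, 92.6 and 80.7, a difference of −0.05 with a 95% interval from −0.19 to 0.10. The difference between the lines (−0.43, adjusted p = 0.0219) was lost without sgNTS replicate 4 of MDA-MB-231 (−0.30, adjusted p = 0.0620), and also without any 1 of several other libraries of both lines, the highest adjusted p being 0.0892 without sgNTS replicate 3 of MDA-MB-231, and with DESeq2 (0.0761). FTX and JPX, X-linked lincRNAs known as activators of XIST, were not called in either line (log2 fold changes 0.19 and −0.11 in MDA-MB-231, 0.06 and −0.02 in SUM159PT). Of the 6 nuclear-retained lncRNAs of the list tested in MDA-MB-231 2 rose, and of 7 tested in SUM159PT 1 fell. Of all genes tested, 20.8% rose and 22.1% fell in MDA-MB-231, and 19.6% rose and 19.7% fell in SUM159PT.

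Genes for the proteins of these bodies were read from lists. Of 20 paraspeckle protein genes tested in MDA-MB-231 none rose and 12 fell, by small amounts, where 20.8% of all genes rose and 22.1% fell, and 14.3% and 42.9% of those at 100 CPM or more. NONO was at −0.21, SFPQ at −0.14, RBMX at −0.30 and NUDT21, a cleavage factor that shapes NEAT1's 3′ end, at −0.38 on the log2 scale. With library totals as the scaling 9 fell and none rose. In SUM159PT, where 19.6% of all genes rose and 19.7% fell, 4 of 21 rose and 4 fell, with HNRNPK rising by 0.11 and NONO at −0.10. Nuclear speckle genes gave 1 up and 2 down of 16 in MDA-MB-231 (6.25% and 12.5%), below the shares of all genes, and 8 up and 2 down in SUM159PT. Without sgNTS replicate 4 of MDA-MB-231, 0 were up and 4 down in that line. Genes of the nuclear exosome and its adaptors, which degrade many noncoding transcripts, gave 2 up and 3 down of 19 in MDA-MB-231 (5 up and 1 down with library totals) and 6 up and 3 down in SUM159PT.

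NORAD, the member of highest level per kilobase, showed small differences. In MDA-MB-231 it was at 414, 447, 442 and 461 CPM with sgNTS and 461, 479, 463 and 448 with sgYES1, a log2 fold change of 0.07 with a 95% interval from −0.02 to 0.15 and overlapping groups. In SUM159PT it was at 288, 278, 276 and 276 CPM and then 279.7, 243, 254 and 246, a fall by 0.12 (SE 0.05, adjusted p = 0.0383). That call was lost without any 1 library other than sgYES1 replicate 1, with adjusted p from 0.0501 to 0.130, and with library totals (0.103). Of the Pumilio genes, PUM2 fell by 0.17 in both lines. Of the cytoplasmic lncRNAs of mRNA stability, 1 rose and 1 fell of 3 tested in MDA-MB-231 and 2 of 2 fell in SUM159PT, both including OIP5-AS1, which is no member. The shares over all genes were 20.8% up and 22.1% down in MDA-MB-231, and 19.6% and 19.7% in SUM159PT.

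**Figure D4:**
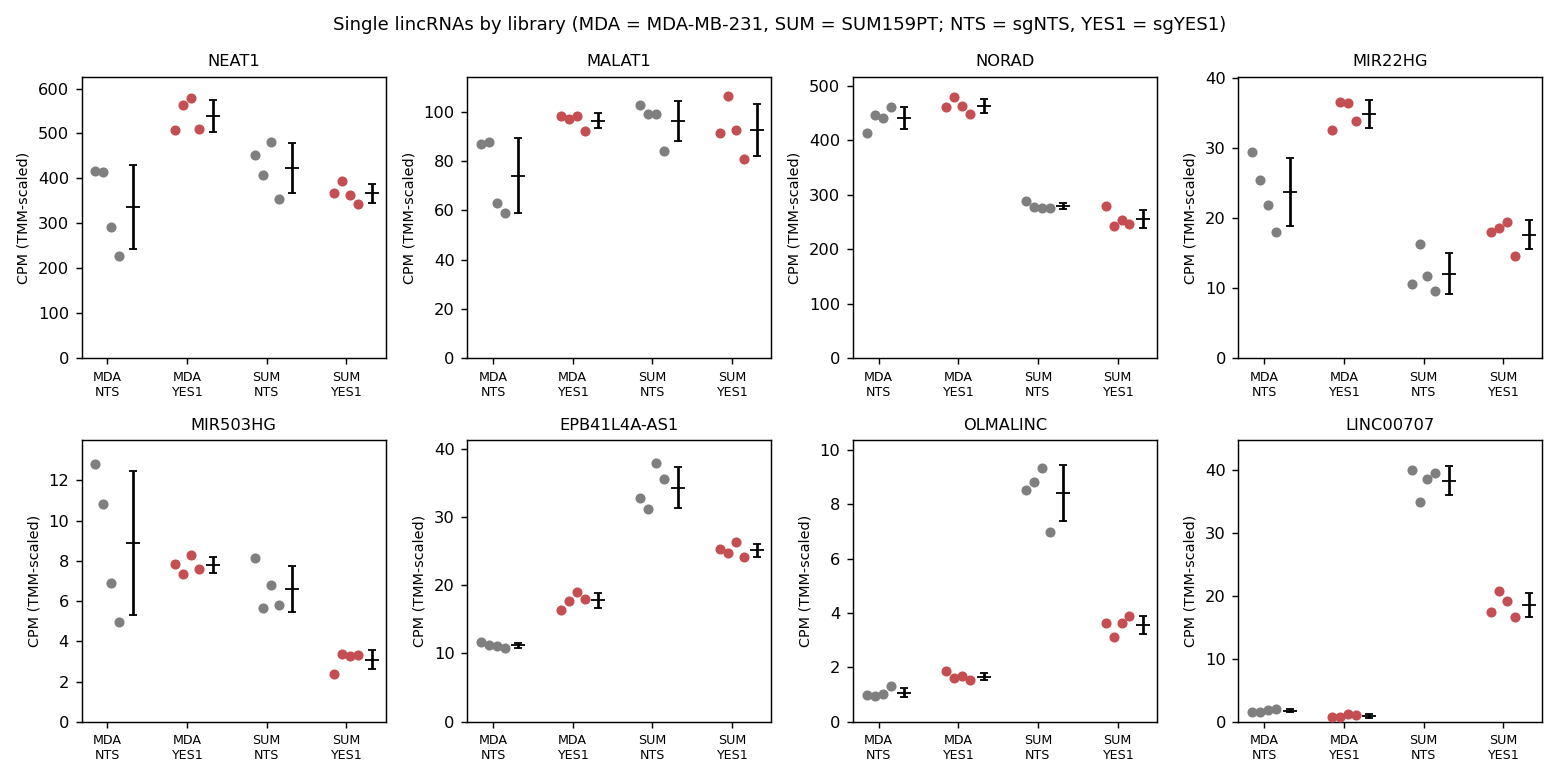
CPM of 8 members in each library (points) with the group mean (line), by line and guide. NEAT1, MALAT1, EPB41L4A-AS1 and OLMALINC are higher with sgYES1 in MDA-MB-231, and OLMALINC, EPB41L4A-AS1, MIR503HG and LINC00707 are lower with sgYES1 in SUM159PT.

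Among the microRNA hosts, MIR22HG rose in both lines, with a difference between the effects of −0.01 on the log2 scale (not called). MIR22HG (chr17:1711493-1717174, minus strand) carries miR-22 in an exon and starts divergently from WDR81. It was at 29.4, 25.5, 21.8 and 18.1 CPM with sgNTS and 32.6, 36.6, 36.5 and 33.9 with sgYES1 in MDA-MB-231 (log2 fold change 0.55, SE 0.11, adjusted p = 0.001). In SUM159PT it was at 10.6, 16.3, 11.8 and 9.65 CPM and then 17.98, 18.5, 19.4 and 14.7 (0.56, SE 0.13, adjusted p = 0.00139). The groups did not overlap in MDA-MB-231 and overlapped at 1 control library in SUM159PT. Without sgNTS replicate 4 of MDA-MB-231 the value there was 0.43. WDR81 rose as well, by 0.94 in MDA-MB-231 and 0.79 in SUM159PT.

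MIR503HG and LINC00472 fell in SUM159PT. MIR503HG (chrX:134543337-134546632), host of miR-503, was at 8.14, 5.65, 6.77 and 5.79 CPM with sgNTS and 2.38, 3.38, 3.27 and 3.30 with sgYES1, a fold of 0.47 (log2 −1.09, SE 0.16, adjusted p = 1.43e-05) with no overlap. In MDA-MB-231 its controls alone ran from 4.98 to 12.8 CPM, lowest in replicate 4, and the change was −0.20 with a 95% interval from −0.66 to 0.26. The difference between the lines, −0.90 (adjusted p = 0.0278), was lost without sgNTS replicate 3 of MDA-MB-231 (0.0665) and without sgNTS replicate 1 (0.0732), sgNTS replicate 3 (0.0540) or sgYES1 replicate 1 (0.0847) of SUM159PT. Without sgNTS replicate 4 of MDA-MB-231 it was −0.66 (adjusted p = 0.0358). LINC00472 (chr6:71344344-71420769), whose introns carry miR-30a and miR-30c, was at 4.75, 3.28, 3.28 and 5.05 CPM with sgNTS and 2.28, 2.12, 2.44 and 2.31 with sgYES1 in SUM159PT (log2 −0.84, SE 0.18, adjusted p = 0.000921). In MDA-MB-231, where its control level was 14.99 ± 0.611 CPM (SD, n = 4), the change was −0.06 with a 95% interval from −0.22 to 0.09.

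Of the 14 members that hold a hairpin, PVT1 and NEAT1 were also called and are described with their own groups, and MUC20-OT1 rose in MDA-MB-231 (0.44) and was not called in SUM159PT (0.19). The remaining 8 were not called in either line. MIR222HG was at 17.7, 16.4, 11.4 and 5.53 CPM in the MDA-MB-231 controls and 13.4 to 14.3 with sgYES1, so the controls alone spanned the treated group, with replicate 4 lowest. Its log2 fold changes were 0.10 and 0.22 in MDA-MB-231 and SUM159PT. MIR210HG, host of the hypoxia microRNA miR-210, had values of 0.26 and 0.25, MIRLET7BHG 0.16 and 0.23, MIR4458HG 0.12 and −0.16, and MIR29B2CHG 0.26 and −0.33. Of all genes tested, 20.8% rose and 22.1% fell in MDA-MB-231, and 19.6% rose and 19.7% fell in SUM159PT. Of the host lncRNAs of the list, 5 rose and 1 fell of 17 tested in MDA-MB-231 (29.4% and 5.88%). In SUM159PT 2 rose and 2 fell of 18 (11.1% each). The median log2 fold change of the host list in MDA-MB-231 was 0.15, and −0.01 without sgNTS replicate 4. The genes of microRNA processing gave 1 up and 3 down of 9 in MDA-MB-231 (2 up and 1 down with library totals) and 4 up and 2 down in SUM159PT.

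Of the lincRNAs best known from cancer, PVT1 rose in both lines. PVT1 was at 18.2, 17.6, 16.8 and 15.5 CPM with sgNTS and 32.8, 27.3, 31.1 and 31.4 with sgYES1 in MDA-MB-231 (log2 0.85, SE 0.07, adjusted p = 4.15e-07). In SUM159PT it was at 109, 90.4, 108 and 101 CPM and then 114, 122, 119 and 115 (0.21, SE 0.05, adjusted p = 0.00374). The groups did not overlap in either line, and the rise was smaller in SUM159PT, by 0.65 on the log2 scale (adjusted p = 9.3e-06). MYC, its neighbour, rose by 0.24 in MDA-MB-231 and fell by 0.27 in SUM159PT.

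CRNDE and EPB41L4A-AS1 gave different patterns. CRNDE, a lincRNA beside IRX5 that is known for its high level in colorectal tumours, was at 17.7, 15.4, 15.4 and 16.3 CPM with sgNTS and 8.24, 8.48, 7.80 and 9.70 with sgYES1 in SUM159PT, a fall by 0.91 (SE 0.10, adjusted p = 2.36e-07). In MDA-MB-231 it fell by 0.26 (adjusted p = 0.0423), a call lost without sgNTS replicates 1 (adjusted p = 0.136) or 2 (0.0919) or sgYES1 replicates 1 (0.0965), 2 (0.106) or 3 (0.0549), and also with library totals (0.0835), DESeq2 (0.0509) or the replicate block (0.0992). EPB41L4A-AS1 overlaps EPB41L4A on the other strand, and whether the counting used strand is not known. In MDA-MB-231 it was at 11.6, 11.3, 11.1 and 10.8 CPM with sgNTS and 16.4, 17.7, 19.1 and 17.9 with sgYES1 (0.66, SE 0.07, adjusted p = 4.41e-06). In SUM159PT it went the other way, from 32.7, 31.1, 37.9 and 35.5 CPM to 25.4, 24.6, 26.3 and 24.1 (−0.44, SE 0.07, adjusted p = 3.69e-05). Neither line's groups overlapped, and the effects differed by −1.12 (adjusted p = 1.17e-08).

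CYTOR and MIR4435-2HG, whose reads are uncertain where their sequence is shared, had 66.3 to 72.8 and 75.9 to 81.7 CPM in the MDA-MB-231 controls. Their log2 fold changes were 0.10 and −0.02 in MDA-MB-231 (95% intervals −0.01 to 0.20 and −0.12 to 0.09) and −0.14 and −0.10 in SUM159PT (−0.26 to −0.02 and −0.22 to 0.03), none called. The shares of all genes called were 20.8% up and 22.1% down in MDA-MB-231 and 19.6% and 19.7% in SUM159PT, and those of lincRNAs that are no members 23.5% and 4.44%, then 8.89% and 9.16%. Of the cancer-associated lncRNAs of the list, 8 rose and 2 fell of 12 tested in MDA-MB-231, and 1 rose and 3 fell of 13 in SUM159PT. The stress and inflammation list gave 5 up and 0 down of 8 in MDA-MB-231 and 1 and 1 of 8 in SUM159PT, and the p53 and DNA damage list 2 up and 0 down of 7, then 2 up and 3 down of 6. Without sgNTS replicate 4 of MDA-MB-231, the 3 lists gave 9 up and 2 down of 12, 6 and 0 of 8, and 2 and 0 of 6 in that line. NEAT1, PVT1, CYTOR and MIR22HG stand in more than 1 of these lists, and the lists were made with earlier results of these data known.

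Beyond the known names, the members with the largest called rise in MDA-MB-231 were low in the controls. AL590004.3, so high in SUM159PT, was at 0.943, 0.735, 0.848 and 1.31 CPM with sgNTS and 3.36, 3.42, 3.22 and 3.66 with sgYES1 in MDA-MB-231 (log2 1.80, SE 0.18, adjusted p = 2.41e-06). In SUM159PT it went from 245, 216, 212 and 234 CPM to 162, 167, 167 and 172 (−0.43, SE 0.05, adjusted p = 3.49e-07). No library overlapped in either line, and the effects differed by −2.24 (SE 0.16, adjusted p = 3.07e-10), the widest of the named members.

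AC003092.1 (chr7:94022833-94066661, 5 exons, function unassigned) had the largest rise in SUM159PT and the second largest in MDA-MB-231. It was at 1.03, 1.10, 0.848 and 0.548 CPM with sgNTS and 2.91, 2.51, 2.78 and 3.04 with sgYES1 in MDA-MB-231 (1.68, SE 0.20, adjusted p = 1.38e-05), and at 0.651, 0.486, 0.713 and 0.990 and then 3.15, 1.92, 2.74 and 2.07 in SUM159PT (1.78, SE 0.27, adjusted p = 1.83e-05). Both rises were free of overlap and differed by 0.09 between the lines (not called). ATP2B1-AS1, which starts divergently inside the gene of the calcium pump ATP2B1, was at 3.45, 3.83, 3.28 and 3.75 CPM and then 9.69, 8.90, 10.5 and 9.47 in MDA-MB-231 (1.42, SE 0.10, adjusted p = 8.37e-08). Its rise in SUM159PT was smaller (0.49, adjusted p = 0.015) and was lost without sgYES1 replicate 3 (adjusted p = 0.0627).

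Further members at least doubled in MDA-MB-231 with no overlap of the groups. AC006449.6 rose by 1.24, AC091982.3 (divergent from G3BP1) by 1.21, AC007249.2 (divergent from ODC1) by 1.18, and AC015912.3 (divergent from TRIM25) and AC144652.1 (divergent from the sterol sensor gene INSIG1) by 1.09 each. AC091982.3 also rose in SUM159PT (0.73, adjusted p = 0.0339), a call lost without sgNTS replicate 1 (0.0911), sgNTS replicate 4 (0.147) or sgYES1 replicate 4 (0.124), and with DESeq2 (0.0852). The other 4 were not called in SUM159PT, with values of 0.21, −0.52, 0.05 and −0.15. The 6 members that fell in MDA-MB-231 were LINC00707, MGC12916 (−0.56), CRNDE, AC022034.1 (−0.26), DUBR and AC125807.2 (both −0.24). The call of AC022034.1 was lost without any 1 library other than sgNTS replicates 1 and 2, with adjusted p up to 0.136 without sgNTS replicate 4, and with library totals (0.0829), DESeq2 (0.0890) or the replicate block (0.0587).

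In SUM159PT the deepest falls were of OLMALINC, MIR503HG, LINC00707 and CRNDE. OLMALINC (chr10:100373513-100454043), a lincRNA beside the stearoyl-CoA desaturase gene SCD and first known from oligodendrocytes, was at 8.53, 8.80, 9.34 and 6.98 CPM with sgNTS and 3.64, 3.11, 3.63 and 3.89 with sgYES1 (log2 −1.21, SE 0.13, adjusted p = 4.77e-07). In MDA-MB-231 it was higher with sgYES1, from 0.984, 0.945, 1.02 and 1.31 CPM to 1.85, 1.60, 1.68 and 1.52 (0.62, adjusted p = 0.018), a call lost without sgYES1 replicate 1 (adjusted p = 0.0506), with no filter on low counts (0.0596) and with DESeq2 (0.0859). No library overlapped in either line, and the effects differed by −1.84 (adjusted p = 1.43e-06). SCD itself fell in both lines, by 0.37 in MDA-MB-231 and 0.52 in SUM159PT.

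LINC00707 (chr10:6779549-6879450) was at 40.1, 35.0, 38.7 and 39.6 CPM with sgNTS and 17.4, 20.9, 19.2 and 16.6 with sgYES1 in SUM159PT (−1.05, SE 0.08, adjusted p = 1.43e-09). It also fell in MDA-MB-231, where it is near the lower end of measurement, from 1.52, 1.57, 1.87 and 2.02 CPM to 0.728, 0.684, 1.20 and 1.13 (−0.87, SE 0.23, adjusted p = 0.00637). The groups were apart in both lines. AL161431.1 (chr13:109269634-109278512), 1 of the 5 most abundant members, was at 123, 119, 125 and 121 CPM and then 82.5, 80.1, 75.7 and 75.7 in SUM159PT (−0.63, SE 0.05, adjusted p = 1.63e-09). MDA-MB-231 libraries had 178, 185, 182 and 242 CPM and then 188, 188, 219 and 200.1, a change of 0.01 with a 95% interval from −0.17 to 0.19. The highest control was sgNTS replicate 4. The difference between the lines was −0.65 with that library and −0.74 without it. LINC01003, 1 exon, fell by 0.63 in SUM159PT (19.1, 18.03, 23.2 and 23.8 CPM to 11.4, 15.4, 14.0 and 13.5) and had a value of 0.08 in MDA-MB-231.

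The members that rose in SUM159PT by the most after AC003092.1 were AC102953.2 (1.02), LINC02009 (0.96), LINC01547 (0.93), LINC00857 and AC009549.1 (both 0.82), AC145207.5 (0.82) and AP003392.4 (0.78). AC102953.2 lies downstream of INTS1 on the same strand and went from 3.00, 4.98, 3.07 and 3.86 CPM to 7.61, 7.15, 6.97 and 8.37 (adjusted p = 1.46e-05), and in MDA-MB-231 from 14.7, 11.8, 12.6 and 10.97 to 18.98, 21.2, 22.5 and 19.3 (0.70, adjusted p = 2.92e-05). All of its sgYES1 libraries were above its controls in both lines. LINC02009, beside the chemokine receptor-like gene CCRL2, rose more in SUM159PT than in MDA-MB-231 (0.15), a difference of 0.80 (adjusted p = 0.00363). The call of AP003392.4 was lost without sgNTS replicates 2 (adjusted p = 0.0869) or 3 (0.0753) or sgYES1 replicate 4 (0.0510), and with DESeq2 (0.0531).

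The lines share no library, so their calls can be set side by side. Of the members, 13 (7.56%) rose in both lines, where 8.28% of the 13390 genes tested in both did. These 13 were 22.0% of the members that rose in MDA-MB-231 and 61.9% of those that rose in SUM159PT. Such shares of the rises in 1 line were not taken for all genes. The 13 were AC003092.1, AC009549.1, AC073335.2, AC091982.3, AC092171.2, AC102953.2, AC245041.2, AP001505.1, ATP2B1-AS1, LINC00857, LINC01547, MIR22HG and PVT1. Their log2 fold changes spanned 0.20 to 1.68 in MDA-MB-231 and 0.21 to 1.78 in SUM159PT. AC092171.2, among the highest per kilobase, rose by 0.20 and 0.51, and LINC01547 by 0.60 and 0.93.

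Falls in both lines were called for CRNDE, DUBR and LINC00707 (3 members, 1.74%, where 8.56% of all genes tested in both fell in both). They were 50% of the members that fell in MDA-MB-231 and 11.5% of those that fell in SUM159PT, shares not taken for all genes. DUBR was at 6.82 ± 0.146 and 5.80 ± 0.358 CPM in MDA-MB-231 (adjusted p = 0.0476) and 23.3 ± 2.29 and 19.8 ± 0.417 in SUM159PT (adjusted p = 0.0318; SD, n = 4). Its MDA-MB-231 call was lost without any 1 library other than sgYES1 replicate 2 (adjusted p up to 0.106) and with library totals, no filter, DESeq2 or the replicate block (0.0758 to 0.142). Its SUM159PT call was lost without sgNTS replicate 1 (0.148) or sgYES1 replicates 2 (0.0671) or 3 (0.0609), and with library totals (0.0580) or DESeq2 (0.0501). Opposite calls, up in MDA-MB-231 and down in SUM159PT, were made for 7 members (4.07%, beside 1.95% of all genes tested in both): AC005261.1, AL590004.3, EPB41L4A-AS1, LINC00662, LINC02577, NEAT1 and OLMALINC. The reverse was called for AC125807.2 alone (2.48% of all genes tested in both).

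AC125807.2 is a single-exon transcript just downstream of TEAD4 on the same strand. It was at 15.2, 16.6, 15.3 and 16.3 CPM with sgNTS and 23.9, 23.8, 22.4 and 22.2 with sgYES1 in SUM159PT (0.55, SE 0.07, adjusted p = 6.32e-06). Its MDA-MB-231 values were 16.2, 16.3, 14.4 and 16.9 CPM and then 13.0, 14.7, 14.4 and 12.3 (−0.24, adjusted p = 0.0247), with overlap. That call was lost without sgNTS replicates 2 (adjusted p = 0.0501) or 4 (0.0544) or sgYES1 replicates 1 (0.0574) or 4 (0.0806), and with library totals (0.0610) or the replicate block (0.0586). A further 39 members rose in MDA-MB-231 alone by call, 2 fell there alone, 7 rose and 16 fell in SUM159PT alone, and 84 were called in neither line. The shares of all genes in these classes were not taken, so the counts are a description. Of all genes tested, 42.8% were called in MDA-MB-231 and 39.4% in SUM159PT.

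**Figure D5:**
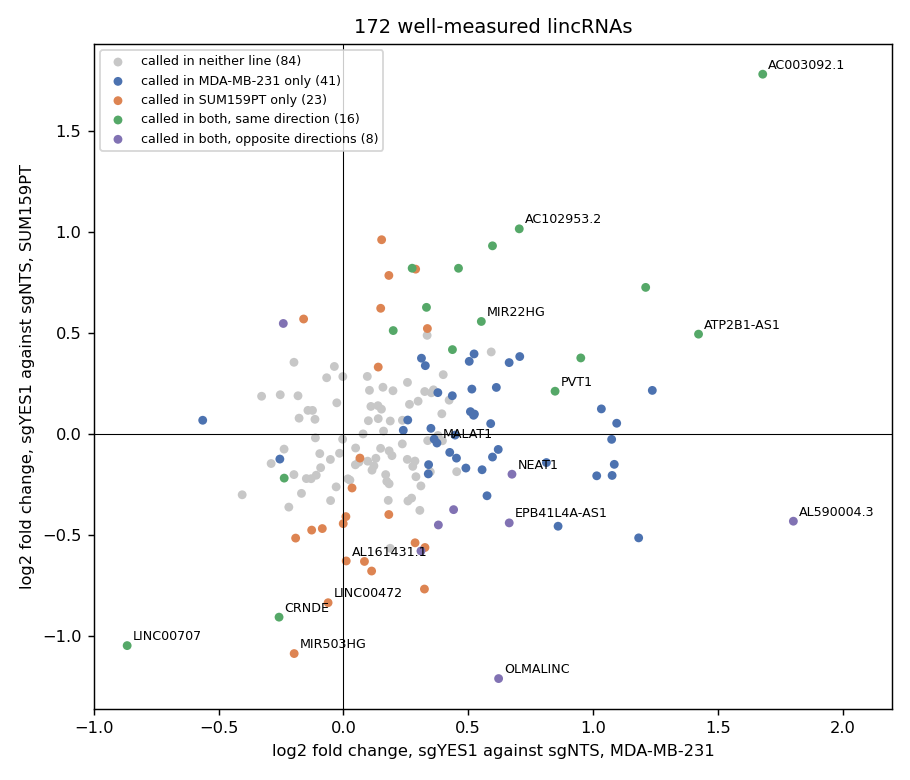
Log2 fold change with sgYES1 in MDA-MB-231 (horizontal axis) and SUM159PT (vertical axis) for the 172 members, coloured by call. AC003092.1 lies at the upper right (1.68 and 1.78), OLMALINC and AL590004.3 at the lower right, and LINC00707 at the lower left.

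The difference between the lines was tested directly over all 16 libraries and 16640 genes. The effect was lower in SUM159PT for 47 members and higher for 6, where 11.9% of all genes were lower and 12.7% higher (24.5% called). The median difference over members was −0.26. Among lincRNAs that are no members, 51 were lower and 5 higher of 591, and among protein-coding genes 1649 and 2064 of 13426. Without sgNTS replicate 4 of MDA-MB-231, 45 members were lower and 6 higher.

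The members were sorted by position relative to coding genes. By the GENCODE 29 annotation, 69 lay over 5 kb from any coding gene, 56 started within 1 kb of a coding gene on the other strand, 14 lay within 5 kb in another arrangement, 12 within 5 kb downstream on the same strand, and the spans of 11 and 10 overlapped a coding gene on the other and on the same strand. In MDA-MB-231, 27 of the 56 divergent members rose and none fell, beside 20 and 3 of the 69 distant ones. In SUM159PT, 6 and 5 of the 56 divergent members rose and fell (10.7% and 8.93%), beside 4 and 17 of the 69 distant ones (5.80% and 24.6%), which include OLMALINC, MIR503HG, LINC00707, LINC00472, AL161431.1, NEAT1 and NORAD. Members with 1 exon (64) and with more exons (108) rose in similar shares in MDA-MB-231, 22 and 37 of them (34.4% and 34.3%).

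The nearest coding genes moved with part of the members. Of the 59 members that rose in MDA-MB-231, the neighbour rose for 20, fell for 10, was not called for 24 and was not tested for 5, while 41 of all 150 tested neighbours rose. Beside the 27 divergent members that rose there, the neighbour rose for 12, fell for 5 and was not called for 10, while 17 of 55 tested divergent neighbours rose. Of the 21 members that rose in SUM159PT, the neighbour rose for 8, fell for 3, was not called for 8 and was not tested for 2. Of the 26 members that fell in SUM159PT, the neighbour fell for 4, rose for 4, was not called for 7 and was not tested for 11. Of all 146 neighbours tested in SUM159PT, 32 rose and 29 fell. Among divergent pairs, ATP2B1 rose by 0.69 in MDA-MB-231 beside ATP2B1-AS1, and INSIG1 rose by 0.29 there and fell by 0.43 in SUM159PT beside AC144652.1. Of the members, 93 overlap the span of another gene and 64 share exon sequence with one, and reads from overlapping genes cannot be told apart without strand. The 79 members that overlap no other span gave 26 up and 2 down in MDA-MB-231 and 11 up and 12 down in SUM159PT.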

How the data were processed

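RNA-seq of 16 libraries was read from 2 deposited tables of whole-number counts per gene, 1 per cell line, with 8 libraries each. The authors' processing notes name HISAT2 2.0.5 for alignment, hg38 as the build and featureCounts 1.5.0-p3 for counting. The use of strand and of multi-mapping reads was not given in the sources used here. Per the labels' protocols, RNA was selected on poly-T beads and primed with random hexamers. All 58735 genes matched GENCODE 29 by identifier, start and end.

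Each line was tested with edgeR 4.0.16 (R 4.3.3, limma 3.58.1), quasi-likelihood F test, TMM scaling and the filterByExpr filter (smallest count 10, smallest total 15), sgYES1 against sgNTS over 8 libraries, with Benjamini-Hochberg adjustment over all genes tested and a threshold of 0.05. The line-by-guide term and the contrast of control lines used all 16 libraries. CPM of single genes were scaled with TMM over 16 libraries, as were the marker lists, and sums over members, small nuclear RNAs and olfactory receptor genes were scaled with library totals. The standard error is the absolute log2 fold change over the square root of F. All 172 members passed the filter in every comparison. The alternatives were library totals, no filter, DESeq2 1.42.0, a replicate block, each library left out, members that overlap no other gene, and a minimum of 1000 counts. On simulated data with changed genes of known fold, the test recovered 98.0% of those tested at 1.5-fold and 95% at 2-fold in MDA-MB-231 (15464 genes), 89.8% and 99.0% in SUM159PT (14455 genes) and 70% and 86% for the line-by-guide term (16594 genes), with 6, 9 and 5 false calls. Every simulated gene had the same spread beyond counting noise, and no simulated library stood apart. The changed genes were few (98 to 100 tested at each fold), where 42.8% of all genes in MDA-MB-231 and 39.4% in SUM159PT were called in the data. They were drawn from all genes above a minimum mean count. The percentages and false calls are thus not rates for these data or for the members. Library totals of 14352042 to 25124164 counts limit the precision. The lowest within-group chi-square per degree of freedom between libraries was 2.22, so none were counted as 1 sample. The highest were those of sgNTS replicate 4 of MDA-MB-231 with replicates 1 (26.2), 2 (17.7) and 3 (8.56). The next highest was 6.26, between sgNTS replicates 1 and 3 of that line.

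The members named were those of the lncRNA role lists, the 8 highest and 8 lowest called log2 fold changes of each line (mean of at least 1 CPM there, groups not overlapping), up to 6 called the same way in both lines in each direction, the 6 smallest p of the line-by-guide term, and the 4 highest and 4 lowest in CPM per kilobase in each line (44 in all, beside 1 that is not reported here). Nearest coding genes are named beside them. Other members named were chosen after their values were seen. The members and lists were chosen with earlier results of these data known.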

Additional observations from a re-analysis of the deposited data

Results flagged for a closer look

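In 8 of 180 groups of 4 libraries (named members and the sum of all members), 1 library lay far from the other 3 by Dixon's ratio, where chance alone gives about 5% of groups. In MDA-MB-231 with sgNTS, replicate 4 stood apart for AC015912.3 (1.43 CPM, others 1.56 to 1.58), AL161431.1 (242, others 178 to 185) and CYTOR (72.8, others 66.3 to 67.2), and replicate 3 for AC144652.1 (3.11, others 1.97 to 2.15) and AP003469.4 (1.98, others 1.15 to 1.27). In SUM159PT, sgYES1 replicate 4 stood apart for AC144652.1 (8.08 CPM, others 5.66 to 5.96), sgYES1 replicate 1 for MIR503HG (2.38, others 3.27 to 3.38) and sgNTS replicate 1 for NORAD (288, others 276 to 278).

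The effect of sgYES1 differed between the lines for 25 of the 44 named members (line-by-guide term of edgeR, adjusted p under 0.05, SUM159PT minus MDA-MB-231 on the log2 scale). Of all 16640 genes tested 24.5% were called for this term, and of the 172 members 30.8%. The naming rule used the p of this term and the changes of each line. The 25 of 44 is thus raised by construction and is given as a description. It was lower in SUM159PT for AL590004.3 (−2.24), OLMALINC (−1.84), AC007249.2 (−1.71), AC144652.1 (−1.25), EPB41L4A-AS1 (−1.12), AP003469.4 (−1.10), AC015912.3 (−1.05), AC006449.6 (−1.03), ATP2B1-AS1 (−0.94), RALY-AS1 (−0.92), MIR503HG (−0.90), NEAT1 (−0.89), LINC00472 (−0.79), LINC01003 (−0.73), CRNDE (−0.66), PVT1 (−0.65), AL161431.1 (−0.65), SFTA1P (−0.44), MALAT1 (−0.43), CYTOR (−0.24) and NORAD (−0.20). It was higher in SUM159PT for LINC02009 (0.80), AC125807.2 (0.78), MGC12916 (0.62) and LINC00857 (0.53). Without 1 library of either line, those of NORAD, MALAT1, CYTOR, MIR503HG, LINC00857, SFTA1P and RALY-AS1 could fall short of the threshold, with the highest adjusted p being 0.156 for NORAD (without sgYES1 replicate 2 of SUM159PT), 0.153 for CYTOR (without sgNTS replicate 3 of SUM159PT), 0.107 for SFTA1P (without the same library), 0.0734 for RALY-AS1 (without the same library) and 0.0546 for LINC00857 (without the same library).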

How the results depend on the processing

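The counts of called members were 65 in MDA-MB-231, 47 in SUM159PT, 53 for the difference between the lines and 135 between control lines. Over library totals, no filter and DESeq2 they ran from 55 to 72, 36 to 45, 47 to 53 and 125 to 131. Restricting to the 79 members that overlap no other gene gave 28, 23, 26 and 64, and restricting to the 37 with at least 1000 counts in each line gave 20, 18, 22 and 33; both test fewer members by construction. Leaving out each library in turn gave 56 to 67 in MDA-MB-231, 37 to 49 in SUM159PT, 41 to 56 for the difference between the lines and 125 to 133 between control lines. With replicate number as a block the counts were 58, 46, 51 and 134; libraries of the same number did not deviate together (correlations of −0.08 to 0.03), so the numbers give no pairing. Of 76 calls of single named members, 58 held under every setting run, 18 were lost under some and 0 reversed direction. The control-line count without sgNTS replicate 4 of MDA-MB-231 was 129. At these depths members near 1 CPM rest on few reads per library, so a small change there was not detectable.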
